A study of Mus musculus with 11 samples.

Results

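The Sox family was examined through 10 of its genes, the group B genes Sox1, Sox2 and Sox3, the group C genes Sox4 and Sox11, the group D genes Sox5 and Sox6, and the group E genes Sox8, Sox9 and Sox10. They were taken by name from 20284 named genes on a mouse expression array. A gene was represented by all probes whose transcript accession carried its symbol, and the brightest probe gave the values used for it. The 10 genes had 14 probes, and all 14 passed the filter on dim probes.

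Otospheres are floating spheres that grow from dissociated cells of the cochlear sensory epithelium (CSE), which senses sound and contains hair cells and supporting cells. They were compared with the freshly dissected CSE and with mouse embryonic stem cells (ESCs), in order to see which genes set these tissue-derived progenitors apart from their tissue of origin and from pluripotent cells. CSE and otospheres came from Institution of Cancer Research (ICR) mice aged 1 day, an outbred stock, with 10 mice and 20 cochleae pooled for a preparation. Otospheres had been grown in medium with bFGF at 10 ng/ml and IGF1 at 50 ng/ml, passaged once, cultured for 4 or 5 days before and again after the passage, and passed through a 100 µm strainer to obtain solid spheres. The ESCs were the lines G4-2 (ES1) and D3 (ES2), at passage 13, grown without feeder cells with LIF at 1000 U/ml, and the labels give no strain for them. The ESC group thus held a single array of each of 2 lines.

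There were 11 arrays on 2 slides. OS1 and OS2 differed by 0.940 times the noise between spots of the same probe and OS4 and OS5 by 0.435 times, whereas the other pairs within a group differed by at least 1.74 times. Each of these pairs was therefore averaged and counted as 1 sample, which left 4 otosphere, 3 CSE and 2 ESC samples. Slide 1 held ES1, OS1 to OS3, CSE1 and CSE2, and slide 2 held ES2, OS4 to OS6 and CSE3. Between 55.1% and 71.6% of the gene spots were well above background on an array, and no spot was saturated. Nothing in the labels says which preparation each array came from, so the p-values measure the spread between these samples. Of 6 ESC markers 5 were lower in otospheres than in ESCs (15.6% of all probes). The exception was the probe matched to Nanog, with a mean log2 signal of 8.38 in ESCs and 9.82 in otospheres. The probes of Nanog disagreed, since 2 others that a table of the study gives to the gene had means of 11.54 and 14.68 in ESCs against 5.49 and 5.69 in otospheres. All 10 supporting cell markers were higher in CSE than in ESCs (13.2% of all probes). In otospheres 7 of them were higher than in ESCs and 1 was lower (Hes5, -2.60), against 12.1% and 15.6% of all probes. The dissected CSE also had signal for markers of other cell types. The mean log2 signal in CSE was 9.84 to 10.98 over neuronal, 8.27 to 9.44 over melanocyte and 9.75 to 10.28 over endothelial markers. In ESCs the same list means were 9.57 to 9.65, 7.73 to 8.18 and 7.70 to 7.93. Such a mean alone therefore does not show that cells of the type were present. In such bulk samples, fewer cells of a type and less RNA per cell cannot be told apart.

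SOX proteins are transcription factors that bind the minor groove of DNA through an HMG box and bend it, and they are sorted into groups by the sequence of that box. The group B proteins SOX1, SOX2 and SOX3 hold stem and progenitor cells in an undifferentiated state. SOX2 works with OCT4 in ESCs, and in the embryonic ear it marks the prosensory domain, from which hair cells and supporting cells arise. Group C proteins act in progenitors and immature neurons. The group D proteins SOX5 and SOX6 lack an activation domain of their own and assist SOX9 at cartilage genes. Group E proteins act in the neural crest, in glia, in cartilage and in the otic epithelium.

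The 250 bases before the start of the genes are shown for Sox2, Sox8 and Sox11, which were lower in otospheres than in CSE, and for Sox4, the group C relative of Sox11 that did not pass that test. RefSeq promoter sequences (GRCm38.p6) matched 7 of the 10 genes, and Sox3, Sox9 and Sox10 were not matched. Capitals mark matches on either strand to 4 motifs. The SOX core was searched as ACAAT. The promoter element that binds the factor NF-Y, called the CAAT box here, was searched as CCAAT. The GC box was searched as GGGCGG. The TATA box was searched as TATAAA. The SOX core and the CAAT box differ in their first letter, so they cannot match at the same place on a given strand. Sox2 lies on the plus strand at chr3:34649745-34649994, Sox8 on the minus strand at chr17:25570687-25570936, Sox11 on the minus strand at chr12:27342719-27342968 and Sox4 on the minus strand at chr13:28953700-28953949.
Sox2: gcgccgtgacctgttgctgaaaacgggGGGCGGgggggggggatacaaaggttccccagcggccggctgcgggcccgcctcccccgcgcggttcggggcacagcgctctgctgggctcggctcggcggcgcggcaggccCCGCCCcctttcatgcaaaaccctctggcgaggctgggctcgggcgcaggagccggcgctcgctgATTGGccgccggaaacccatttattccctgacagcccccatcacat
Sox8: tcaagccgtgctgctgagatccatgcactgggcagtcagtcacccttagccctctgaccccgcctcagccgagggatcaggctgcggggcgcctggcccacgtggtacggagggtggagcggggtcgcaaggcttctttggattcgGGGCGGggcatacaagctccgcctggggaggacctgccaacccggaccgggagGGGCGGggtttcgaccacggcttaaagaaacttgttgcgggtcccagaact
Sox11: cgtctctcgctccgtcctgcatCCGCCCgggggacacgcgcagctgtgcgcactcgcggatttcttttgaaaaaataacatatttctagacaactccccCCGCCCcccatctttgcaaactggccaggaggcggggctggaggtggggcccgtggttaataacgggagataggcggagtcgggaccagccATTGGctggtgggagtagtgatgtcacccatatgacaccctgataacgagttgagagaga
Sox4: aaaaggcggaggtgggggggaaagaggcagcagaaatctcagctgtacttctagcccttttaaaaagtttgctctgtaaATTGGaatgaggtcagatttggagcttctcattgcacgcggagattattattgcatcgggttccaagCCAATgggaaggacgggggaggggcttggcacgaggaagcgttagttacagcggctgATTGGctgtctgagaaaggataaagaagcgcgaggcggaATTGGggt

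Sox2 held 2 GC boxes and 1 CAAT box, Sox8 held 2 GC boxes, Sox11 held 2 GC boxes and 1 CAAT box, and Sox4 held 4 CAAT boxes and no GC box. Among 32851 promoters of the same length, 32.7% held a GC box, 33.8% a CAAT box, 27.7% a SOX core and 12.4% a TATA box. The letters ACAAT and TATAAA were absent from both strands of the 4 stretches. Other forms of a SOX site were not searched. Their GC content was 72.0% for Sox2, 65.6% for Sox8, 58.0% for Sox11 and 50.8% for Sox4, against a median of 52.4% over all promoters. CG dinucleotides numbered 27, 18, 17 and 11 in the same order, against a median of 6. These are matches of letters and say nothing of binding in these samples.

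Between otospheres and CSE, 4 of the 10 Sox genes were lower in otospheres (Sox2, Sox3, Sox8 and Sox11) and none was higher at an adjusted p under 0.05 (limma, Benjamini-Hochberg adjustment over 47997 probes). Over all probes, 6.19% were lower and 4.84% higher. At an unadjusted p under 0.05 the counts were 4 lower and 0 higher. The shares of all probes that were lower or higher, here and below, are at an adjusted p under 0.05. No such share was taken at the unadjusted threshold, so the unadjusted counts have no background beside them. Against ESCs, 6 of the 10 genes were higher in otospheres (Sox4, Sox5, Sox6, Sox9, Sox10 and Sox11) and 2 were lower (Sox2 and Sox3), where 12.1% of all probes were higher and 15.6% lower. In CSE 7 genes were higher than in ESCs (Sox4, Sox5, Sox6, Sox8, Sox9, Sox10 and Sox11) and 2 were lower (Sox2 and Sox3), where 13.2% of all probes were higher and 15.6% lower. The 3 comparisons share their samples. The median difference of the 10 genes was -0.48 between otospheres and CSE, 1.24 between otospheres and ESCs and 1.91 between CSE and ESCs on the log2 scale, and the corresponding medians over all probes were 0.02, -0.03 and -0.06. Scaling each array to its 75th percentile moved the medians over all probes to -0.03, -0.28 and -0.25. No difference with an adjusted p under 0.05 changed direction under that scaling. The samples of the groups did not overlap for 4 of the 10 genes between otospheres and CSE (23.4% of all probes), for 9 between otospheres and ESCs (46.1%) and for 9 between CSE and ESCs (52.2%).

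**Figure D1:**
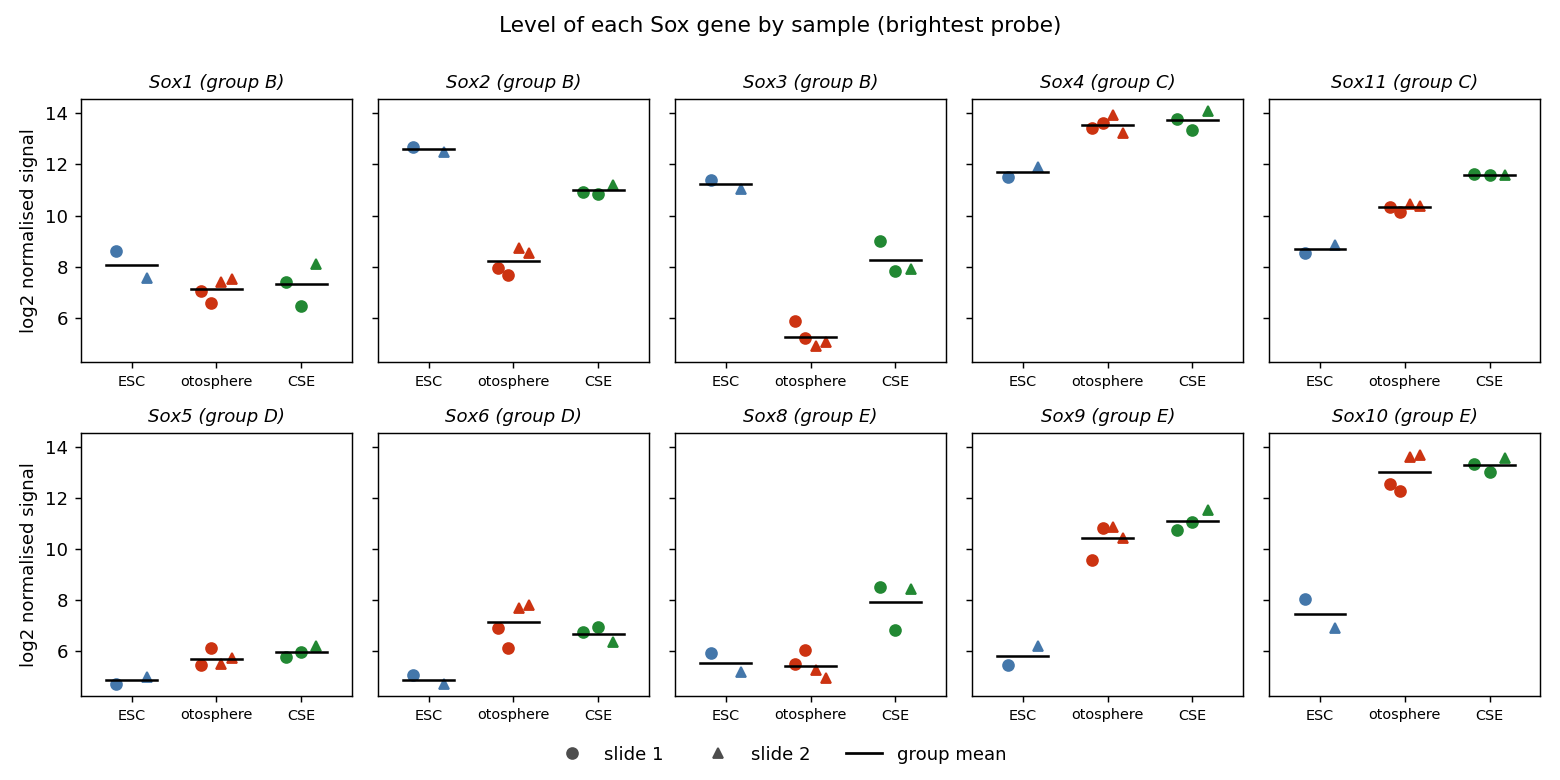
Log2 normalised signal (vertical axis) of the brightest probe of each Sox gene in ESC, otosphere and CSE samples (horizontal axis). Circles are samples of slide 1, triangles samples of slide 2 and bars group means. Sox2 and Sox3 were highest in ESCs and lowest in otospheres, Sox11 rose from ESCs to otospheres to CSE, and Sox9 and Sox10 were high in both ear groups.

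Sox2, the group B factor of pluripotent and prosensory cells, was 6.78-fold lower in otospheres than in CSE and 20.5-fold lower than in ESCs. The log2 signal was 12.67 in ES1 and 12.50 in ES2, 10.92, 10.85 and 11.20 in the CSE samples, and 7.95 (OS1 with OS2), 7.67 (OS3), 8.74 (OS4 with OS5) and 8.56 (OS6) in the otosphere samples. The highest otosphere sample was below the lowest CSE sample, and CSE in turn was below both ESC samples. The difference from CSE was -2.76 ± 0.27 (SE; adjusted p = 4.24e-04), that from ESCs -4.36 ± 0.30 (adjusted p = 2.26e-05), and CSE differed from ESCs by -1.60 ± 0.32 (adjusted p = 0.00529, limma). Within the slides the difference from CSE was -3.07 on slide 1 and -2.55 on slide 2. The otosphere samples of slide 2 lay 0.84 above those of slide 1, and the probe was well above background on all arrays.

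Sox3, an X-linked group B gene of neural progenitors, followed the same order of groups. Its log2 signal was 11.40 and 11.06 in ESCs, 8.9998, 7.84 and 7.93 in CSE, and 5.90, 5.21, 4.90 and 5.05 in otospheres. The 3 groups did not overlap, and the probe was well above background on 2 of the 6 otosphere arrays, so the otosphere values lie near the floor of the measurement. The difference from CSE was -2.99 ± 0.34 (SE; adjusted p = 8.70e-04, limma), and the within-slide values were -2.86 and -2.95. Between CSE and ESCs it was -2.97 ± 0.40 (adjusted p = 6.95e-04), and between otospheres and ESCs -5.96 ± 0.38 (adjusted p = 1.52e-05). Scaled to the 75th percentile of the processed signal, the otosphere to CSE difference was -5.45 and the otosphere to ESC difference -8.83. The part of the signal used and that of the scaling were not tested separately.

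Sox1, the last of the group B genes examined here, which marks the early neural plate, did not pass the test in any comparison. The log2 signal was 8.61 and 7.56 in ESCs, 7.07, 6.58, 7.39 and 7.53 in otospheres, and 7.39, 6.47 and 8.10 in CSE. CSE overlapped with both other groups, while the otosphere samples lay just below the lower ESC sample. The difference between otospheres and CSE was -0.18 with a 95% interval from -1.13 to 0.78. A second probe gave 0.11, with an interval from -0.39 to 0.60.

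Group B genes were set beside 13 genes of the prosensory programme around Sox2. In otospheres 9 of the 13 were lower than in CSE and none was higher (limma, and 10 and 0 at an unadjusted p under 0.05). Of all probes 6.19% were lower. The median difference was -1.88 on the log2 scale against 0.02 over all probes. The largest differences were those of Hes5, a target of Notch signalling (-7.37), Bmp4, a secreted signal (-4.11), Atoh1, the factor that starts hair cell differentiation (-3.14), and Jag1, a Notch ligand of supporting cells (-2.69), each with an adjusted p under 0.05 (limma). Against ESCs, CSE had 11 of the 13 higher (13.2% of all probes), whereas otospheres had 5 higher and 3 lower (12.1% and 15.6% of all probes). The genes not higher in CSE, Eya1 and Pax2, passed in no comparison. The Eya1 probe was bright in ESCs, otospheres and CSE (means 14.98, 14.63 and 14.89) and that of Pax2 dim (6.17, 5.74 and 5.84). These probes thus did not separate ear samples from ESCs. Of 9 ESC genes regulated by SOX2 with OCT4, none differed between otospheres and CSE at an adjusted p under 0.05 (limma), 1 was higher and 1 lower at an unadjusted p under 0.05, and their median difference was 0.08. Utf1 (0.88), Fbxo15 (-0.64), Lefty1 (0.30) and Dppa4 (0.29) had the largest differences. Over all probes, 15.6% were lower than in ESCs in otospheres and 15.6% in CSE, with median differences of -0.03 and -0.06. This list of ESC genes was lower than in ESCs for 8 of 9 genes in otospheres (median -7.22) and for 8 of 9 in CSE (median -7.64). The exception in both was the probe matched to Nanog by its RefSeq accession, and the 2 other Nanog probes were lower in otospheres than in ESCs (-6.05 and -8.99, with adjusted p = 2.44e-05 and 1.60e-06, limma).

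Markers of hair cells and supporting cells were lower in part in otospheres than in CSE, as Sox2 was, but did not share its high level in ESCs. Of the supporting cell markers 8 of 10 were lower in otospheres than in CSE (6.19% of all probes) and none was higher. At an unadjusted p under 0.05, 9 were lower and 1 was higher, which was S100a1 (1.46, adjusted p = 0.107, limma). The mean log2 signal over the list was 9.67 to 10.38 in otospheres and 12.51 to 12.71 in CSE. Hair cell markers were lower for 5 of 10 and higher for none (7 and 0 at an unadjusted p under 0.05), with list means of 6.90 to 8.80 and 9.54 to 9.76. In ESCs the list means were 7.21 to 7.56 for supporting cells and 6.68 to 6.89 for hair cells. No otosphere array had Prox1 well above background. Jag1, Prox1, Hes5 and Cdkn1b belong to both the supporting cell and the prosensory list, and Atoh1 to both the hair cell and the prosensory list. The part of these cell types in the difference of Sox2 was not tested.

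Sox4 and Sox11, the group C genes examined here, were both higher in the ear samples than in ESCs but differed in the comparison of otospheres with CSE. Sox4 had a log2 signal of 11.50 and 11.90 in ESCs, 13.43, 13.61, 13.92 and 13.21 in otospheres, and 13.79, 13.33 and 14.08 in CSE. Otospheres and CSE overlapped, and both lay above ESCs. The difference was 1.84 ± 0.27 (SE; adjusted p = 0.00109) between otospheres and ESCs, 2.03 ± 0.29 (adjusted p = 8.52e-04) between CSE and ESCs, and -0.19 with a 95% interval from -0.73 to 0.36 (adjusted p = 0.778, limma) between otospheres and CSE. This probe carries an Ensembl transcript and took its gene name from a table of the study. A second Sox4 probe, with a RefSeq accession, gave 1.42 and 1.45 against ESCs (adjusted p = 0.00273 and 0.00313). The dimmest of the Sox4 probes gave 0.82 and 1.06, which did not pass the test (adjusted p = 0.108 and 0.0534).

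Sox11, which with Sox4 acts in immature neurons and in the developing ear, had a log2 signal of 8.55 and 8.85 in ESCs, 10.33, 10.15, 10.46 and 10.39 in otospheres, and 11.61, 11.58 and 11.59 in CSE. The groups did not overlap, and the SD within a group was 0.21, 0.13 and 0.02. Otospheres were 2.40-fold below CSE, a difference of -1.26 ± 0.15 (SE; adjusted p = 0.00111, limma), and 3.09-fold above ESCs, a difference of 1.63 ± 0.17 (adjusted p = 1.80e-04). CSE exceeded ESCs by 2.89 ± 0.18 (adjusted p = 1.20e-05). A second probe gave -1.55, 1.78 and 3.33 in the same order, with all adjusted p under 0.05. Within slides the difference between otospheres and CSE was -1.36 and -1.17.

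**Figure D2:**
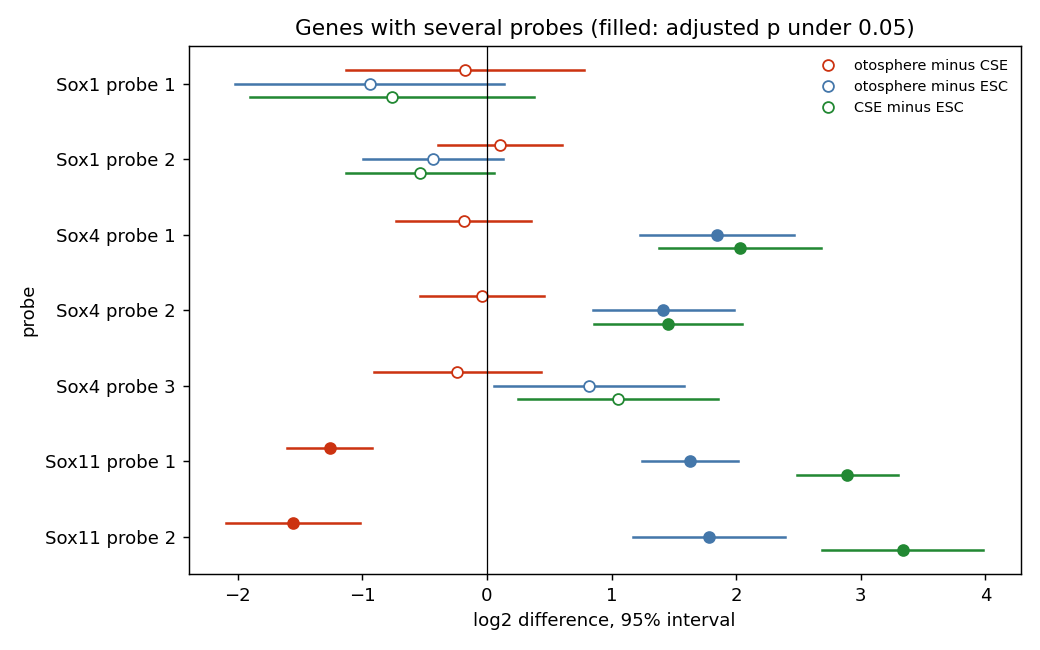
Log2 difference (horizontal axis, with 95% interval) for each probe (vertical axis) of the 3 Sox genes with several probes. Colours are comparisons, and filled points have an adjusted p under 0.05. Both Sox11 probes were lower in otospheres than in CSE and higher than in ESCs, and Sox4 probe 3 did not pass against ESCs.

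Neuronal markers went the same way as Sox11 between otospheres and CSE, and the other way between otospheres and ESCs. Of 11 such genes 8 were lower in otospheres than in CSE and none was higher, with a median difference of -3.71, and the list mean was 7.07 to 7.42 in otospheres and 9.84 to 10.98 in CSE. On the otosphere arrays Elavl3 and Neurod1 were never well above background, and Snap25 differed by 0.02. In ESCs the list mean was 9.57 to 9.65, where Sox11 was lowest. Against ESCs, 7 of the 11 were lower in otospheres and none was higher, whereas Sox11 was higher. Of all probes 15.6% were lower in otospheres than in ESCs, and 6.19% were lower than in CSE. The part of neurons in the difference of Sox11 between otospheres and CSE was not tested.

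Sox5 and Sox6, the group D genes, were measured above background in the ear samples and on no ESC array. Sox5 had a log2 signal of 4.75 and 4.99 in ESCs, 5.49, 6.12, 5.51 and 5.73 in otospheres, and 5.78, 5.97 and 6.21 in CSE. Otospheres and CSE overlapped and were above ESCs by at least 1.26-fold (adjusted p = 0.0233) and at least 1.52-fold (adjusted p = 0.00775, limma). Each fold is a bound, taken from the ESC arrays' faintest signal still flagged as above background. The signal was close to background in all groups, and the otosphere to ESC difference did not pass without ES1 (adjusted p = 0.130) or without ES2 (0.0504, limma).

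Sox6 reached a higher level, with a log2 signal of 6.92, 6.13, 7.68 and 7.80 in otospheres and 6.76, 6.95 and 6.36 in CSE, against 5.07 and 4.73 in ESCs. Otospheres were above ESCs by at least 3.36-fold (adjusted p = 0.00499, limma) and CSE by at least 2.47-fold (adjusted p = 0.0186), and the CSE call did not pass when either ESC sample, CSE1 or CSE2 was left out. Between otospheres and CSE the difference was 0.45 with a 95% interval from -0.43 to 1.33 (adjusted p = 0.625, limma). It differed in direction between the slides, at -0.33 on slide 1 and 1.38 on slide 2. The otosphere samples of slide 2 were 1.22 above those of slide 1.

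Among the group E genes, Sox9 and Sox10 were high in both otospheres and CSE, whereas Sox8 was high in CSE alone of the 3 groups. Sox9, the master factor of cartilage and an early otic gene, was spotted 10 times on each array. Its log2 signal was 5.47 and 6.20 in ESCs, 9.58, 10.82, 10.88 and 10.44 in otospheres, and 10.76, 11.05 and 11.53 in CSE. Otospheres and CSE overlapped at one end, and both lay above ESCs. Otospheres exceeded ESCs by 4.60 ± 0.40 (SE; adjusted p = 7.09e-05) and CSE exceeded them by 5.28 ± 0.42 (adjusted p = 4.59e-05, limma). Otospheres were below CSE by an amount that did not pass, -0.68 with a 95% interval from -1.49 to 0.12 (adjusted p = 0.317, limma). The SD between the spots of an array was 0.08 to 0.23.

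Sox10, which drives Schwann cell and melanocyte fates and is also made in supporting cells of the cochlea, had a log2 signal of 8.04 and 6.91 in ESCs, 12.55, 12.29, 13.58 and 13.66 in otospheres, and 13.32, 13.001 and 13.55 in CSE. Otospheres exceeded ESCs by 5.54 ± 0.46 (SE; adjusted p = 5.65e-05), a 46.6-fold difference, and CSE exceeded them by 5.81 ± 0.49 (adjusted p = 5.87e-05, limma). Otospheres and CSE differed by -0.27 with a 95% interval from -1.20 to 0.66 (adjusted p = 0.822, limma). The otosphere samples of slide 1 lay below all CSE samples and those of slide 2 above all, 1.20 apart, so the within-slide differences from CSE were -0.74 and 0.07. The markers of Schwann and satellite glia went both ways between the slides. The otosphere samples of slide 2 were above those of slide 1 for 5 of the 9 genes, among them Mal (1.95) and Erbb3 (1.26), and below for 4, among them Ngfr (-3.14) and Foxd3 (-2.91). The list mean of hair cell markers was 7.54 and 6.90 on slide 1 and 8.36 and 8.80 on slide 2. With 2 samples a slide this was not tested.

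Sox8, the remaining group E gene, had a log2 signal of 5.92 and 5.19 in ESCs, 5.51, 6.04, 5.27 and 4.95 in otospheres, and 8.53, 6.84 and 8.43 in CSE. All CSE samples lay above the otosphere and ESC samples, which overlapped each other. The probe was well above background on 1 of 2 ESC, 3 of 6 otosphere and all 3 CSE arrays. Otospheres were 5.62-fold below CSE, a difference of -2.49 ± 0.44 (SE; adjusted p = 0.00753, limma), or -1.91 and -3.32 within the slides, and -4.45 with scaling to the 75th percentile. CSE exceeded ESCs by 2.38 ± 0.53 (adjusted p = 0.00887), which did not pass without ES2 (adjusted p = 0.0656, limma). Otospheres and ESCs differed by -0.12, with a 95% interval from -1.25 to 1.02.

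**Figure D3:**
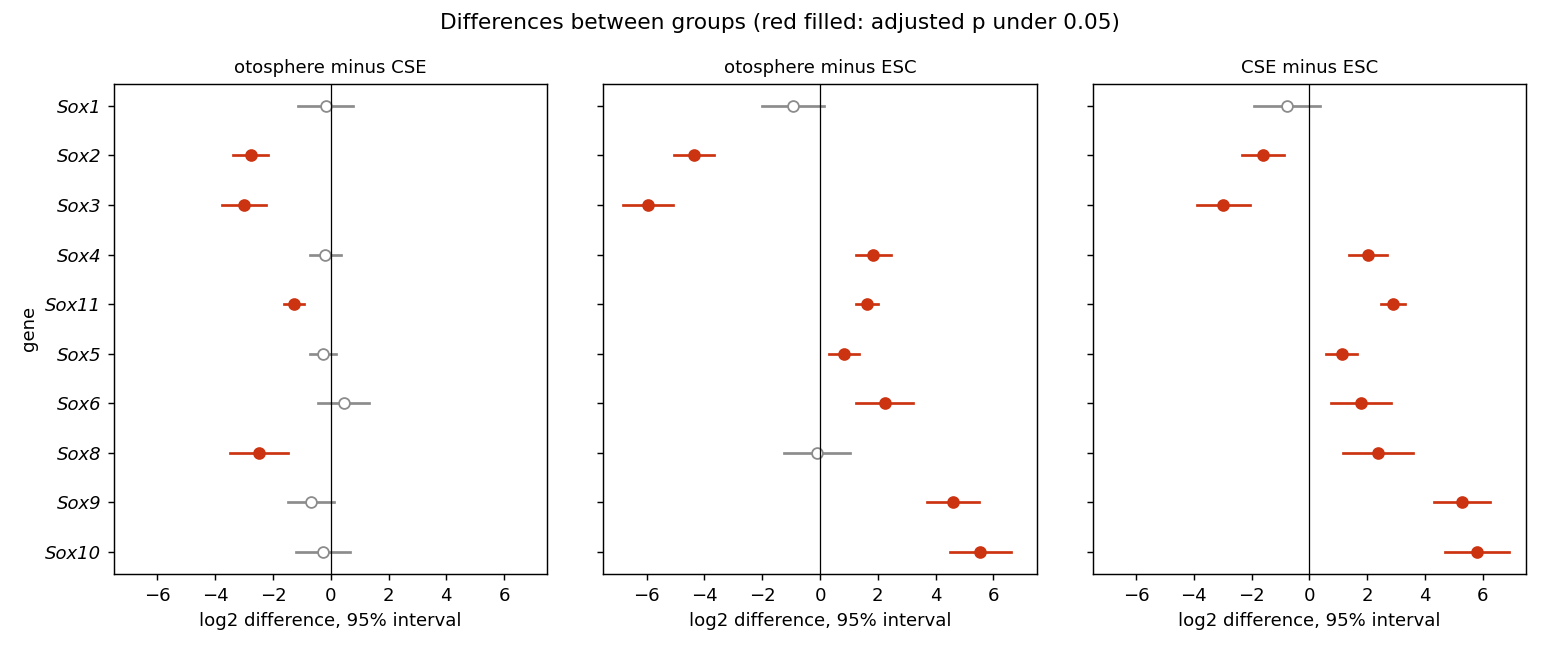
Log2 difference between groups (horizontal axis, with 95% interval) for each Sox gene (vertical axis). Red filled points have an adjusted p under 0.05. Sox2, Sox3, Sox8 and Sox11 were lower in otospheres than in CSE, and the largest differences from ESCs were those of Sox3, Sox9 and Sox10.

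Group E and D genes were set beside 12 cartilage genes controlled by SOX9 with SOX5 and SOX6. Compared with CSE, 6 of the 12 were lower in otospheres (6.19% of all probes) and none was higher, with a median difference of -2.14. Col9a1 (-3.86), Col2a1 (-3.28) and Col9a3 (-3.28), all collagens of cartilage that the cochlea also makes, passed the test, and Matn1 (-3.70, adjusted p = 0.108, limma) did not. The otosphere samples of slide 2 were above those of slide 1 for 9 of the 12 genes and below for 3. That gap was 3.03 for Col2a1, 4.10 for Matn1 and -0.88 for Col9a1. Within the slides Col2a1 differed from CSE by -4.70 and -1.96, and Col9a1 by -3.49 and -4.14. The gap between slides was not tested. Against ESCs, 7 of the 12 were higher and 3 were lower in otospheres (12.1% and 15.6% of all probes). In CSE 8 were higher and 3 lower than in ESCs (13.2% and 15.6% of all probes). Acan, Comp and Matn3 were those lower in both. Sox9, Sox5 and Sox6 themselves did not pass between otospheres and CSE.

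The glial and melanocyte lists, which hold genes that SOX10 is known to act on, moved in mixed ways. Of 9 glial genes 1 was lower in otospheres than in CSE (Foxd3, -3.02) and 2 were higher (Mbp, 1.90, and Mal, 2.42), with a median difference of -0.86. At an unadjusted p under 0.05 the counts were 5 lower and 2 higher. The glial list mean was 9.40 to 10.12 in otospheres and 10.03 to 10.48 in CSE, which overlapped. Of 8 melanocyte genes 4 were lower (Dct, Pmel, Ednrb and Kit) and none was higher, with a median of -1.40, and Tyrp1 stayed at background on every otosphere array. The list mean was 6.76 to 7.45 in otospheres and 8.27 to 9.44 in CSE. Over all probes 6.19% were lower in otospheres than in CSE and 4.84% higher. The part of glia and melanocytes in the difference of Sox8 was not tested.

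**Figure D4:**
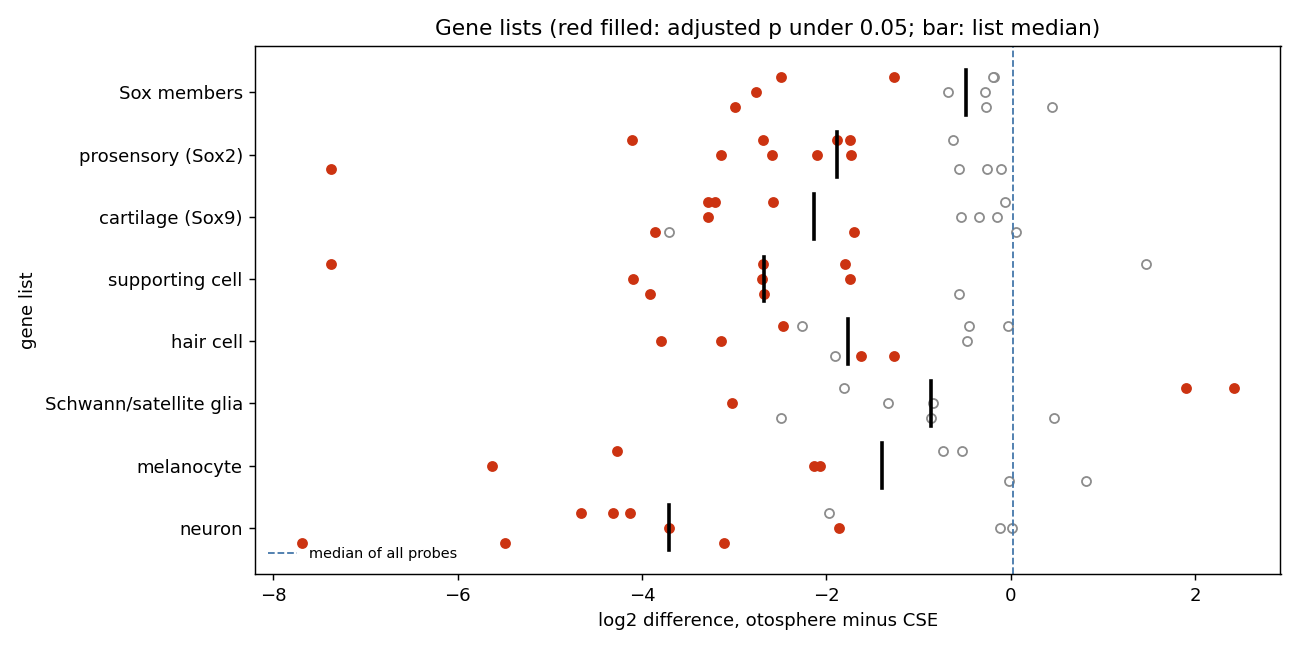
Log2 difference between otospheres and CSE (horizontal axis) for each gene of the lists (vertical axis). Red filled points have an adjusted p under 0.05, black bars are list medians and the dashed line is the median over all probes, 0.02. Of the lists drawn, only the glial list has genes that passed in the higher direction, Mbp and Mal.

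The genes whose levels followed 1 Sox gene of each group most closely over the 9 samples were sought among 18544 genes by Pearson's correlation, as a description with no test, since the 3 groups alone set most of the pattern. For Sox2 they were Dll3 (0.994), Gcgr (0.991) and Cpne5 (0.990). For Sox4 they were Hspa5 (0.991), Ndufa1 (0.989) and Zxdb (0.983), and for Sox6 they were Gpsm1 (0.989), Stim2 (0.985) and Osbpl6 (0.984). For Sox10 they were Clic6 (0.997), Six2 (0.996) and Sorcs2 (0.996). Dll3, a divergent Notch ligand, had mean log2 signals of 10.56 in ESCs, 5.93 in otospheres and 8.89 in CSE.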

How the data were processed

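Single-colour arrays were read from the scanner files, as deposited, which hold linear intensities (the median over each spot's pixels and over its surroundings, from Feature Extraction 10.7.3.1) with no normalization between arrays. A second deposited table holds the authors' log2 values, background-corrected and quantile-normalized with limma (version not given in the sources used here) and filtered on dim probes, which served as an alternative. In R 4.3.3, the normexp method of limma 3.58.1 with an offset of 16 removed background, followed by log2 conversion and quantile normalization across the 11 arrays. The method and offset were chosen here. Spots flagged as outliers were dropped and the spots of a probe averaged. Of 55681 probes 47997 were kept, which on at least 2 arrays exceeded by 10% or more the 95th percentile of 308 negative controls. A limma model of the 3 group means gave differences, with Benjamini-Hochberg adjustment over kept probes and a threshold of 0.05. The script was tested on simulated data.

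Names came from RefSeq accessions for 26763 probes, with 1 Sox4 probe named through a table of the study. Probe sequences were not used, so cross-hybridization between Sox genes was not tested. All 10 members were named, 4 genes of a list by the largest difference between otospheres and CSE, and the 3 most correlated genes for 4 members. Members and lists were chosen with earlier results of these data known, and 2 genes planned for the glial list are not reported here and were left out of its values. A fold given as "at least" applies where no array of a group was well above background. The number of arrays limits the precision. Alternatives were the offset, scaling to the 75th percentile, the deposited table, the filter, slide or replicate number as a block, every array separate, the variance of each probe alone, other probes and leaving out each sample. The RNA amount was 50 or 100 ng, without saying for which sample.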

Additional observations from a re-analysis of the deposited data

How the results depend on the processing

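The counts of Sox genes that passed ranged over the alternatives from 4 to 5 between otospheres and CSE, from 7 to 8 between otospheres and ESCs and from 7 to 9 between CSE and ESCs, and Sox2, Sox3, Sox8 and Sox11 passed in the first comparison under every alternative run. Among all probes the counts ranged from 2945 to 7958, from 10672 to 16194 and from 11042 to 15719 in the same order. Each lowest and highest count was out of 47997 probes. Differences that changed direction had not passed the test. Between otospheres and CSE these were Sox4 (0.11) and Sox10 (0.033) with scaling to the 75th percentile, Sox1 with its second probe (0.11), and Sox6 with the replicate number as a block (-0.032). Leaving out 1 sample gave -0.60 to 0.21 for Sox1 in that comparison, positive without OS3 or CSE3, and -0.48 to 0.25 for Sox8 between otospheres and ESCs, positive without ES1 or OS6. The replicate numbers did not pair the samples, since deviations of same-numbered otosphere and CSE arrays correlated at 0.36, -0.34 and -0.39. With the replicate block and every array separate, 5, 7 and 9 genes passed in the order above, Sox9 passed between otospheres and CSE (-1.12, adjusted p = 0.0380, limma) and Sox5 did not pass between otospheres and ESCs (0.67, adjusted p = 0.0757). Of all 47997 probes, 4570, 10672 and 11987 passed under that setting. Sox5 and Sox6 lay near background in ESCs, and their differences from ESCs moved by over 1.5 times under some settings. Sox5 between otospheres and ESCs was 0.45 with an offset of 50 (adjusted p = 0.0503), 1.47 with an offset of 0, 1.45 in the deposited table and 2.21 with scaling to the 75th percentile. Sox6 between CSE and ESCs was 1.11 with an offset of 50 (adjusted p = 0.0577), 2.68 with an offset of 0 and 4.09 with that scaling, which also gave 4.52 for Sox6 between otospheres and ESCs, 2.97 for Sox5, 4.20 for Sox8 and 1.32 for Sox4 between CSE and ESCs. The Sox6 difference between CSE and ESCs did not pass with the variance of each probe alone (adjusted p = 0.0572) or when ES1, ES2, CSE1 or CSE2 was left out (adjusted p up to 0.0969, limma). The cause of these changes was not tested. The other results kept their direction and their side of the threshold, except the dimmest Sox4 probe and the Sox8 call without ES2, given with those genes, and Sox9 in the deposited table, given last.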

Other observations

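Of the other Sox genes 9 had a kept probe. Sox17 and Sox18, group F genes of endothelium and endoderm, were lower in otospheres than in both CSE and ESCs. The brighter Sox17 probe and the Sox18 probe were never well above background on the otosphere arrays and lay at least 5.64-fold (adjusted p = 0.00142) and at least 4.67-fold (adjusted p = 0.00345, limma) below CSE. The other Sox17 probe was well above background on 2 of 6 otosphere arrays and 3.17-fold below CSE (-1.66, adjusted p = 0.0199, limma). Below ESCs, the brighter Sox17 probe lay at least 6.72-fold (adjusted p = 5.70e-04) and the Sox18 probe at least 4.41-fold (adjusted p = 0.00287, limma). Between CSE and ESCs these 2 probes differed by -0.25 and 0.08 (adjusted p = 0.725 and 0.916, limma). Of 6 endothelial markers 3 were lower in otospheres than in CSE (Cdh5, Tek and Cldn5, against 6.19% of all probes) and none was higher. The part of endothelium in the differences of Sox17 and Sox18 was not tested. Sox12, the remaining group C gene, was also lower in otospheres than in CSE (-1.16, adjusted p = 0.0437, limma). Sox15 fell below its ESC level by a difference of -3.80 for otospheres and -3.67 for CSE, and its otosphere and CSE values overlapped. Sox14 and Sox21 also belong to group B. Sox14 did not pass between otospheres and CSE (adjusted p = 0.885), otospheres and ESCs (0.572) or CSE and ESCs (0.799, limma). The probes of Sox21 disagreed, with a difference between otospheres and ESCs of 2.00 (adjusted p = 5.46e-04, limma) for the brighter and -0.24 (adjusted p = 0.497) for the other.

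Sox9 showed a property of the deposited log2 table. Its probe, spotted 10 times, had values of 0.459 to 1.16 there, while the scanner files gave mean log2 signals of 5.47 to 11.53 on the same arrays. In that table the otosphere to ESC difference of Sox9 was 0.54 (adjusted p = 0.0554, limma). Of its 372 probes spotted 10 times, 362 lay more than 1 log2 unit below the scanner values, with a median of -7.70, against 95 of 43194 probes spotted once, with a median of -0.17. How the authors combined such spots is not given in the sources used here.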
